A study of Homo sapiens with 6 samples.

Results

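The genes described here are 9 genes of zinc handling in ES-2 cells, an established ovarian clear cell carcinoma line: the metallothioneins MT1A, MT1E, MT1F, MT1G, MT1H, MT1X and MT2A, their transcriptional regulator MTF1, and the zinc exporter SLC30A1. Members were all probes annotated with 1 of these symbols, which gave 11 probes for 8 of the 9 genes, out of 48803 probes and 18852 named genes on the array. No probe used here was annotated as MT1A. The cells had received a hairpin that inhibits miR-182, a microRNA, at a final concentration of 50 nM, or a negative control hairpin inhibitor derived from a worm microRNA, whose concentration the sources used here do not give. Each group held 3 biological replicates, 1 Illumina bead array each, from RNA taken 48 h after transfection, and both groups shared the cell line, the serum-containing medium and the transfection reagent. Sample labels and protocols name an inhibitor and are followed, although the series' design text has the word mimic. No mock-transfected arrays were analysed here, and 1 cell line limits what the comparison stands for.

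Metallothioneins are small, cysteine-rich proteins that bind zinc, copper and cadmium in metal-thiolate clusters. When free zinc in the cell increases, the zinc finger protein MTF1 binds metal response elements (MREs) in the promoters of metallothionein genes and of SLC30A1, whose product carries zinc out through the plasma membrane. The comparison asks whether transcripts of this system differ once miR-182 is inhibited. The targeted strand is shown so that the agent is clear, with its seed (bases 2 to 8) in capitals, from RefSeq on GRCh38.p14 (chr7:129770447-129770470, minus strand).
hsa-miR-182-5p: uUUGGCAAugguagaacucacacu
No probe was annotated as this microRNA, so how far it was inhibited is not known from these arrays.

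In the RefSeq gene table of GRCh38.p14, all 7 metallothioneins of the list lie in 1 cluster on chromosome 16, where 16 metallothionein genes and pseudogenes stand in a row interrupted by 3 other genes. MTF1 and SLC30A1 both lie on chromosome 1. RefSeq promoter windows, each 300 bases from 250 before to 50 after the gene start, matched 5 of the 9 genes: MT2A, MT1X, MT1H, SLC30A1 and MTF1. They are printed because MTF1 acts on its targets through the MRE, and the capitals mark each match to the MRE core, TGCACNC or TGCGCNC, on either strand. The MT2A window is chr16:56608334-56608633, plus strand, that of MT1X chr16:56682220-56682519, plus strand, and that of MT1H chr16:56669564-56669863, plus strand. The SLC30A1 window is chr1:211579112-211579411, minus strand, and that of MTF1 is chr1:37859543-37859842, minus strand.
MT2A: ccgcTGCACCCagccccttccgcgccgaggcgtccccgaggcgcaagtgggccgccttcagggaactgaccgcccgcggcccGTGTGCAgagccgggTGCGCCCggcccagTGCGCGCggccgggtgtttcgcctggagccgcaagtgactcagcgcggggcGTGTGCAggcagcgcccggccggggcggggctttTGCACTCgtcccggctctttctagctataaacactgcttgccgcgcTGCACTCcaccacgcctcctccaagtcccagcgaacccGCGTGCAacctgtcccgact
MT1X: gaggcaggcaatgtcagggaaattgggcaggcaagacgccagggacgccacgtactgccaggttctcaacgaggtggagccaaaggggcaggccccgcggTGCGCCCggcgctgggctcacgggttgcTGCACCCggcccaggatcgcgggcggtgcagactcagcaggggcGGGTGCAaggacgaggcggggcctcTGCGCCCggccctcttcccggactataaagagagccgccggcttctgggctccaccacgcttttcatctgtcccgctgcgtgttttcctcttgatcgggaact
MT1H: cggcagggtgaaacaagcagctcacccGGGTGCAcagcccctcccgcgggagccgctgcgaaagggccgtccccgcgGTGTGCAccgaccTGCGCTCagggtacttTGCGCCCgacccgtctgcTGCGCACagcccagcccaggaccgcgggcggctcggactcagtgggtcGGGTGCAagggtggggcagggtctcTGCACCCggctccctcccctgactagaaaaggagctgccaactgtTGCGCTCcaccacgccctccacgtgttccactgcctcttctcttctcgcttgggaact
SLC30A1: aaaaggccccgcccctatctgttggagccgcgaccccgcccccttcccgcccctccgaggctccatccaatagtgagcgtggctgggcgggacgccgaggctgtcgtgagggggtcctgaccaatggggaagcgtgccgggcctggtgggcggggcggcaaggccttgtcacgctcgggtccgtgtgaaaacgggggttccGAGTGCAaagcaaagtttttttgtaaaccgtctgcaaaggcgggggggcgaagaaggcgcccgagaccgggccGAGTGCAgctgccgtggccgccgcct
MTF1: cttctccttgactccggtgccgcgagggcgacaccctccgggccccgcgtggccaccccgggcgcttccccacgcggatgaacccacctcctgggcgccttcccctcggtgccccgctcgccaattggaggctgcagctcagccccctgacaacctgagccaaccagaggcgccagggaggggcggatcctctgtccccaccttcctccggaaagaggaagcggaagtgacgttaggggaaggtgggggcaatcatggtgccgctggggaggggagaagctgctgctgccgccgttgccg

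The MT2A and MT1H windows each held 8 MRE core matches, MT1X held 4, SLC30A1 held 2 and MTF1 held 0. Of 35116 RefSeq promoter windows of the same length, 29.6% held at least 1 match, 8.60% at least 2, 0.601% at least 4 and 0.0200% at least 8. The windows of MT2A and MT1H are thus far denser in these letters than nearly all others, while that of SLC30A1 is moderately so. A TATA box (TATAAA, searched on both strands and found in 11.5% of windows) began at −29 in MT2A and −30 in MT1X, and was not found in the other 3 windows. An AP-1 site (TGACTCA), found in 4.95% of windows, began at −104 in MT2A alone among the 5. The GC box (GGGCGG), present in 45.0% of windows, matched 6 times in SLC30A1, 2 times each in MT2A and MT1X, and 1 time each in MT1H and MTF1. The antioxidant response element core (TGACNNNGC), present in 13.3% of windows, matched 1 time each in MT2A, MT1X and SLC30A1. In MT2A this match also began at −104 on the gene's strand, so the AP-1 site lies within it and the 2 are not separate sites. All 5 windows were GC-rich, at 67.0% to 72.0%, and a match in letters describes the sequence and does not show that a factor binds there.

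**Figure D1:**
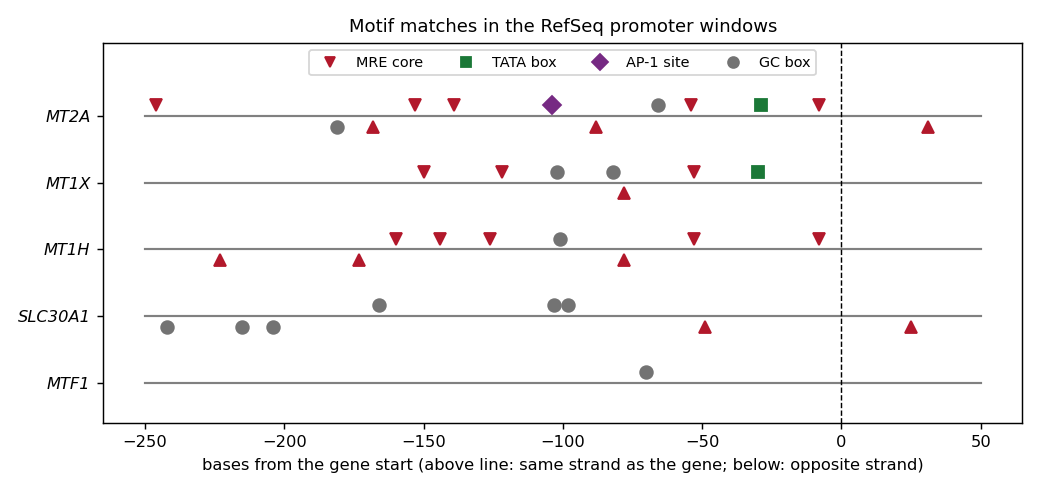
Positions of motif matches in the 5 promoter windows, by distance in bases from the gene start, with each marker at the leftmost base of its match. Red triangles (MRE core) lie above the line for matches on the gene's strand and below it for the opposite strand, and number 8, 4, 8, 2 and 0 in MT2A, MT1X, MT1H, SLC30A1 and MTF1.

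Across all 6 arrays, between 20365 and 22473 of the probes (41.7% to 46.0%) were detected (detection p under 0.05), and probes rested on 40 to 41 beads in the median. Of 9 genes with a probe in a list of clear cell markers, 7 were detected on every array. Among them were ANXA4, KRT7, KRT8 and KRT18, and also VIM and ARID1A, which are not particular to epithelium. NAPSA, an aspartic protease used to diagnose clear cell carcinoma, was detected on none. PAX8 was detected on 2 of 3 miR-182 inhibitor arrays and 1 of 3 control arrays. The leukocyte antigen PTPRC, the endothelial VWF, the fibroblast proteoglycan LUM and the haemoglobin gene HBB were detected on no array. Other markers of these types were detected on every array, namely 3 of 6 for white blood cells, 3 of 4 for endothelium and 2 of 5 for fibroblasts. Summed signals of the white blood cell markers ran from 2097 to 2439 with the miR-182 inhibitor and from 2257 to 2487 with the control, and those of the endothelial markers from 1143 to 1437 with the miR-182 inhibitor and from 1283 to 1417 with the control. Those of the fibroblast markers ran from 1106 to 1293 with the miR-182 inhibitor and from 1167 to 1324 with the control. For the clear cell markers they ran from 18244 to 21225 with the miR-182 inhibitor and from 20157 to 21843 with the control. VIM was by far the brightest of that list, at a mean log2 value of 14.09 with the miR-182 inhibitor and 14.12 with the control. The next, ARID1A, had 10.24 and 10.32, so the clear cell sum mostly follows VIM. The groups overlapped in each sum, and 0 of the markers tested passed the adjusted threshold. ANXA4 was the 1 clear cell marker whose groups lay apart, with the inhibitor lower, as in 6.23% of all genes. Its log2 difference (miR-182 inhibitor minus control) was −0.27 ± 0.092 (SE; limma, adjusted p = 0.602, or 0.0164 before adjustment). Of the tested markers, 7 of 8 for clear cell carcinoma, 4 of 4 for white blood cells, 2 of 3 for endothelium and 3 of 4 for fibroblasts lay below 0, against 50.0% of all genes. All samples were of 1 established cell line, and the source of these marker transcripts was not tested.

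Transcripts of 5 metallothioneins, MTF1 and SLC30A1 were detected on all 6 arrays, and none of them changed past the test between miR-182 inhibitor and control. Of the 7 genes tested, 4 lay above and 3 below 0, with log2 differences (miR-182 inhibitor minus control) from −0.15 in MT1X to 0.13 in MT1G and a median of 0.0073. Over all 12087 genes tested the median was near 0 (1.5e-05), and the central 95% of differences ran from −0.23 to 0.21. At an adjusted p under 0.05 (limma, Benjamini-Hochberg over all genes tested), 0 of the 7 were called, where the share over all genes was 0%. Without adjustment, 0 of 7 had a p under 0.05 in the main analysis, against 7.65% of all genes. MT1X fell below 0.05 under some alternatives, given with its values below. The groups lay apart, with no overlap between their values, in 0 of 7 genes, against 13.0% of all genes. In these bulk samples, fewer cells with a transcript and less of it per cell cannot be told apart.

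**Figure D2:**
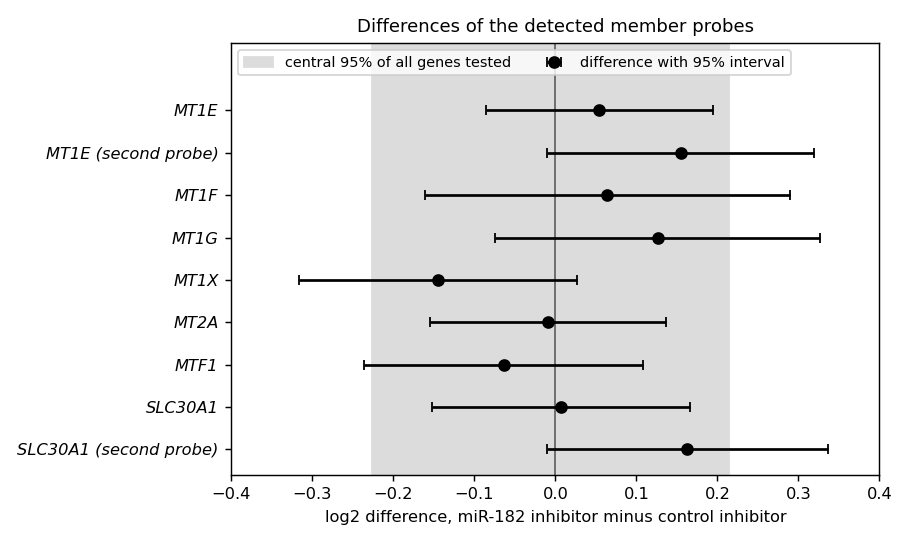
Log2 difference, miR-182 inhibitor minus control inhibitor, for each of the 9 detected probes, with its 95% interval from limma (points and bars), on the central 95% of the differences of all genes tested (grey). All 9 intervals include 0, and MT1X is the probe farthest below it.

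MT2A, the main metallothionein isoform of most human cells, had deposited signals of 12373, 14735 and 13440 intensity units on the miR-182 inhibitor arrays, against 14554, 13697 and 14227 on the control arrays. The group means were 13516 ± 1183 with the miR-182 inhibitor and 14159 ± 433 with the control (SD, n = 3 each). The lowest and the highest of the 6 signals were both miR-182 inhibitor arrays, replicates 1 and 2, so the groups overlapped. After quantile normalization the log2 values were 13.75, 13.69 and 13.79 with the miR-182 inhibitor and 13.78, 13.69 and 13.79 with the control. Replicates 2 of both groups had the same normalized value, as did replicates 3, since the probe held the same rank on both arrays (112 from the top in replicates 2 and 94 in replicates 3). For so bright a probe the normalized value is thus set by rank, in steps. The difference was −0.0091 ± 0.065 (SE; adjusted p = 0.991, limma), with a 95% interval of 0.898- to 1.10-fold. Without normalization between arrays it was −0.071, and it turned to 0.016, 0.0037 and 0.0080 without miR-182 inhibitor replicate 2, control replicate 1 and control replicate 3.

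MT1X, another isoform of the cluster, had normalized log2 values of 10.49, 10.65 and 10.52 with the miR-182 inhibitor, against 10.60, 10.71 and 10.79 with the control. Replicate 2 of the inhibitor group lay above replicate 1 of the control group, so the groups overlapped in this one pair. Its deposited signals were 1302, 1835 and 1418 intensity units with the miR-182 inhibitor, against 1649, 1758 and 1693 with the control. The SD of the inhibitor signals, 280.3, was several times that of the control signals, 54.5, and the standard error over the beads of 1 array was only 2.79% to 4.82% of the signal. The log2 difference of −0.15 ± 0.076 (SE) was the farthest from 0 of the 7 genes (limma, adjusted p = 0.711, or 0.0882 before adjustment). Its 95% interval ran from 0.803- to 1.02-fold. MT1X stayed below 0 with each array left out in turn, at −0.20 to −0.10. Its unadjusted limma p was 0.0404 from the deposited table, 0.0414 without background correction and 0.0454 with an offset of 50. It was 0.0327 with an intensity trend and robust prior, 0.0468 without miR-182 inhibitor replicate 2 and 0.0426 without control replicate 1. Under these settings 993 to 1062 of the 12087 genes had an unadjusted p under 0.05. Under the other alternatives that of MT1X was at least 0.0712, and its lowest adjusted p was 0.552.

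MT1E, also of the cluster, was measured by 2 detected probes. The first read 13.15, 13.16 and 13.16 on the log2 scale with the miR-182 inhibitor, against 13.10, 13.05 and 13.15 with the control. All 3 inhibitor values lay close together (SD 0.0073, against 0.050 in the control), although their deposited signals, 8209, 10177 and 8801, spread more than those of the control, 9054, 8849 and 8835. The difference was 0.054 ± 0.062 (SE; adjusted p = 0.869, limma), it was −0.0059 after median scaling and 0.029 without control replicate 2, and the lowest inhibitor value, on replicate 1, lay just under the highest control value, on replicate 3.

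The second MT1E probe, close to background, read 5.82, 5.73 and 5.66 with the miR-182 inhibitor, against 5.58, 5.62 and 5.54 with the control. Every inhibitor value lay above every control value, and the difference was 0.15 ± 0.073 (SE), or 1.11-fold (95% interval 0.993 to 1.25). Over the 21349 probes tested each on its own, limma gave an adjusted p of 0.740, or 0.0624 before adjustment. Signals before normalization were 80.0, 85.7 and 76.3 with the miR-182 inhibitor and 77.1, 73.9 and 66.0 with the control, which overlap. The distance between the 2 MT1E probes differed between the groups by 0.10 log2 units (exact permutation test, 2-sided, p = 0.2, where 3 against 3 arrays allow no p below 0.1).

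MT1G and MT1F, of the same cluster, were also detected on every array. MT1G read 7.76, 7.69 and 7.91 with the miR-182 inhibitor, against 7.67, 7.79 and 7.52 with the control. Control replicate 3 was the lowest of the 6 and control replicate 2 the second highest, and without control replicate 3 the difference of 0.13 ± 0.089 (SE; adjusted p = 0.761, limma) was 0.057. MT1F, like the second MT1E probe close to background, read 5.80, 5.39 and 5.62 with the miR-182 inhibitor, against 5.54, 5.57 and 5.51 with the control. Both its highest and its lowest value came from the inhibitor group, whose SD was 0.21 against 0.030 in the control group. Its difference of 0.064 ± 0.10 (SE; adjusted p = 0.909, limma) turned to −0.035 without miR-182 inhibitor replicate 1.

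**Figure D3:**
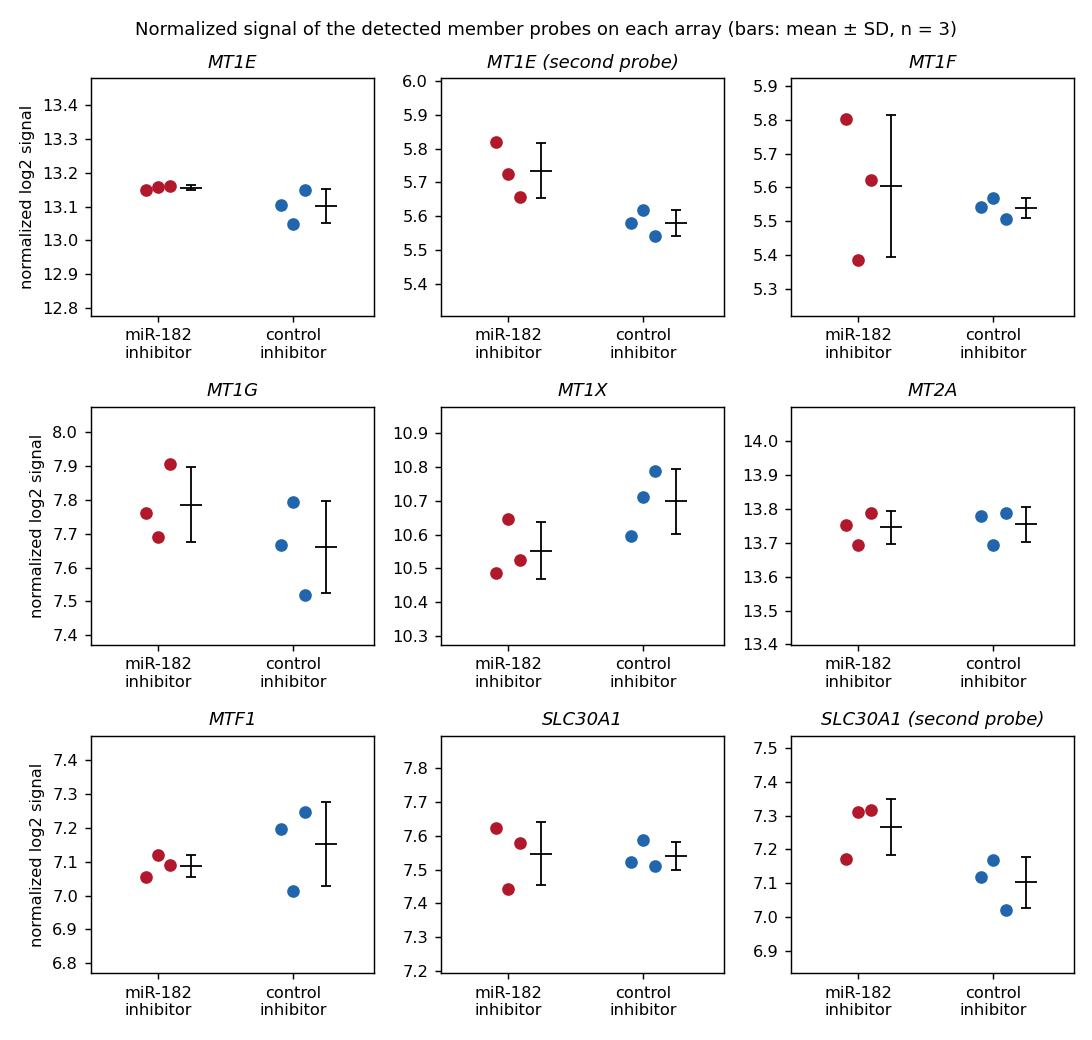
Normalized log2 signal of the 9 detected probes on each array, miR-182 inhibitor (red) and control inhibitor (blue), with mean ± SD of 3 arrays in black; each panel has its own level and the same span. The groups overlap in all 7 probes that stand for their genes and lie apart in the second probes of MT1E and SLC30A1.

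MT1H was not detected on any array by either of its 2 probes. The first had 43.5, 44.8 and 45.3 intensity units with the miR-182 inhibitor, against 43.1, 43.5 and 41.9 with the control. The second had 42.6, 43.4 and 43.6 with the miR-182 inhibitor, against 42.5, 39.8 and 37.8 with the control. On the same arrays the dimmest probe called detected had 45.7 to 51.7 units, so these values give only a bound and no fold. MT1H was thus not measurable in either group. Because metallothionein transcripts resemble each other closely and no probe sequences were used here, the share of a signal that comes from a related isoform was not tested.

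MTF1, the zinc-sensing regulator, read 7.06, 7.12 and 7.09 with the miR-182 inhibitor, against 7.20, 7.01 and 7.25 with the control. The inhibitor values lay between the lowest and the highest control value, and the control SD of 0.12 exceeded that of the inhibitor group, 0.032. Its difference was −0.064 ± 0.076 (SE; adjusted p = 0.873, limma), with a 95% interval of 0.849- to 1.08-fold. It was −0.017 without control replicate 3 and −0.13 without control replicate 2.

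SLC30A1, the zinc exporter, was measured by 2 probes. The first read 7.62, 7.44 and 7.58 with the miR-182 inhibitor, against 7.52, 7.59 and 7.51 with the control, and the inhibitor group held both the highest and the lowest value. Its difference was 0.0073 ± 0.071 (SE; adjusted p = 0.994, limma), with a 95% interval of 0.900- to 1.12-fold, and it was below 0 with any of 4 arrays left out (miR-182 inhibitor replicates 1 and 3, control replicates 1 and 3), down to −0.030. The second read 7.17, 7.31 and 7.31 with the miR-182 inhibitor, against 7.12, 7.17 and 7.02 with the control. Its inhibitor values all lay above its control values, although inhibitor replicate 1 and control replicate 2 both rounded to 7.17.

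The second SLC30A1 probe differed by 0.16 ± 0.077 (SE), or 1.12-fold (95% interval 0.993 to 1.26), with an adjusted p of 0.740 over all probes in limma, or 0.0629 before adjustment. The distance between the 2 SLC30A1 probes differed between the groups by 0.16 log2 units (exact permutation test, 2-sided, p = 0.3, smallest possible 0.1). Of the 9 detected probes of the member genes, these second probes of MT1E and SLC30A1 were the 2 whose groups lay apart, against 12.4% of all 21349 probes, and in both the miR-182 inhibitor values were higher, against 6.28%. Of the 9, 0 had an unadjusted p under 0.05 in the main analysis, against 6.91% of all probes. For the second SLC30A1 probe the unadjusted limma p was 0.0404 from the deposited table, 0.0422 without background correction and 0.0423 with an offset of 50. It was 0.0332 without the detection filter and 0.0331 without miR-182 inhibitor replicate 1. For the second MT1E probe it was 0.0258 without the filter and 0.0427 without miR-182 inhibitor replicate 3. Both stayed above 0.05 under the other alternatives, and the lowest adjusted p was 0.644. The groups of both probes overlapped if arrays were not normalized to each other or were scaled to their medians, where the differences were 0.16 and 0.14 for MT1E and 0.16 and 0.13 for SLC30A1. Those of the second SLC30A1 probe also overlapped in the deposited table, where the difference was 0.12, while those of the second MT1E probe lay apart there, at 0.078.

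**Figure D4:**
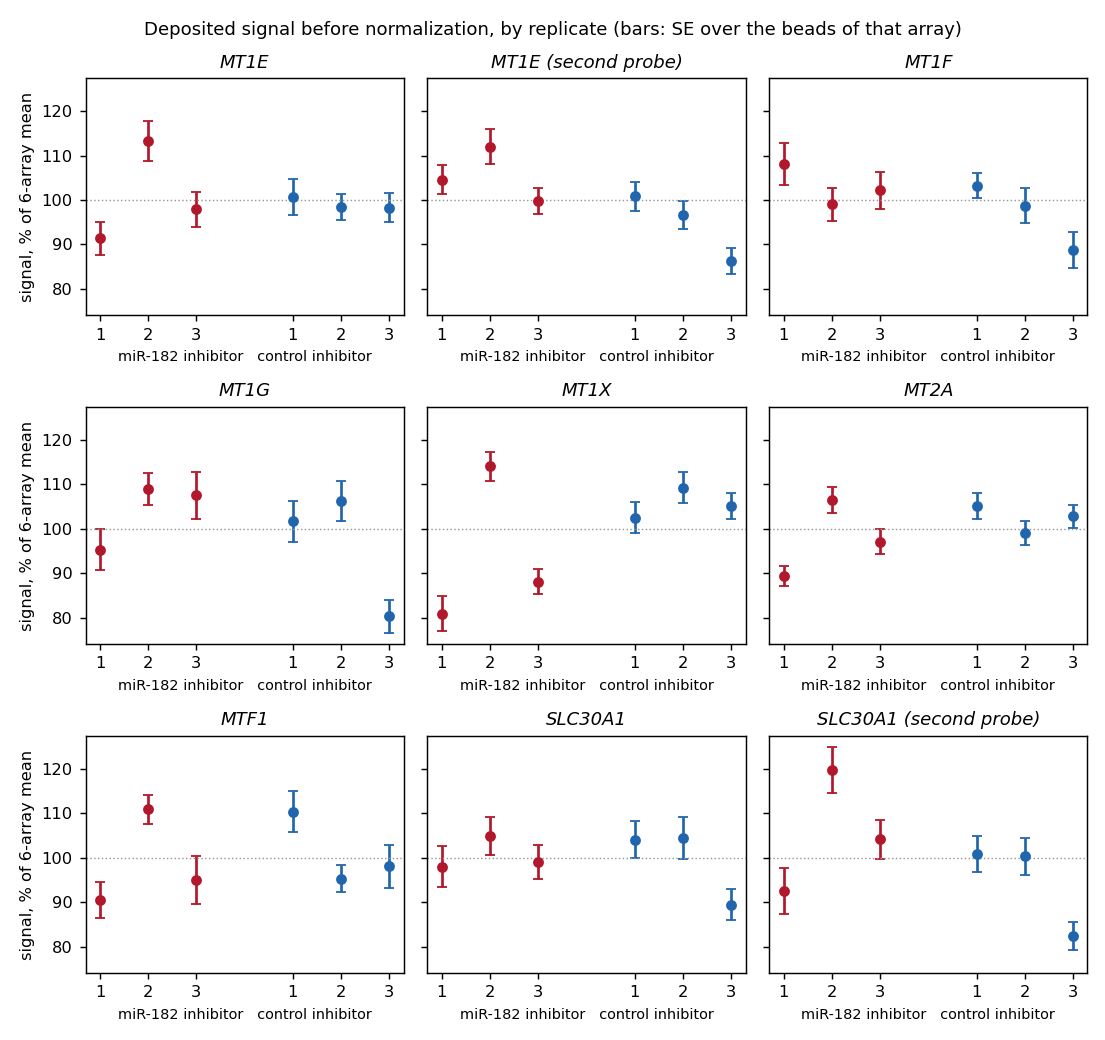
Deposited signal of the 9 detected probes as a percent of the mean of the 6 arrays, by replicate, miR-182 inhibitor (red) left of control inhibitor (blue), with the standard error over the beads of each array. MT1X, MT2A, MT1E and MTF1 are lowest on miR-182 inhibitor replicate 1, while MT1G, MT1F, both SLC30A1 probes and the second MT1E probe are lowest on control replicate 3.

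The spread between replicates of these genes before normalization was partly shared by array. The signals of MT1X, MT2A, MTF1 and the first MT1E probe were lowest on miR-182 inhibitor replicate 1, and those of MT1X, MT2A, MT1G, MTF1, both SLC30A1 probes and both MT1E probes were highest on miR-182 inhibitor replicate 2. MT1G, MT1F, both SLC30A1 probes and the second MT1E probe were lowest on control replicate 3, the array with the lowest median signal over all probes, 43.5, against 44.9 to 49.4 on the others. The standard error over beads was 2.47% to 5.65% of the signal across the 9 detected probes. The coefficient of variation between replicates reached 18.5% for MT1X and 12.9% for the second SLC30A1 probe with the miR-182 inhibitor, and 14.4% for MT1G with the control.

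After normalization the metallothioneins did not keep 1 common order over the arrays. Pearson's r with MT2A over the 6 arrays was 0.43 for MT1E, 0.32 for MT1F, −0.15 for MT1G and −0.19 for MT1X, and 0.60 for MTF1 and 0.19 for SLC30A1. Among the 12080 other genes tested, those most like MT2A were CEP70, a centrosomal protein (r = 0.98), EML5, a microtubule-associated protein (0.98), SNX6, a sorting nexin of the retromer (0.98), the linker histone H1-3 (0.97) and TPST1, a tyrosylprotein sulfotransferase (0.97). These values describe 6 arrays that share 1 normalization, chosen as the highest of many genes, and are no test. The differences of these 5 genes lay between −0.067 and −0.013, none past the test (adjusted p of 0.911 to 0.990 in limma).

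Zinc transporters other than SLC30A1 showed no change past the test. Of 10 zinc exporters, 5 were tested, 4 of them above and 1 below 0, with a median of 0.027. With 1 array left out that median ran from 0.00069 (without control replicate 1) to 0.049 (without miR-182 inhibitor replicate 2), and it was −0.00097 with median scaling. Farthest from 0 were SLC30A3, at 0.078 ± 0.12 (SE), or −0.053 without miR-182 inhibitor replicate 1, and SLC30A7, a transporter into the secretory pathway, at 0.062 ± 0.073, or 0.015 without control replicate 3 and −0.00097 after median scaling. Of 14 zinc importers, 11 were tested, 6 above and 5 below 0, with a median of 0.037. With 1 array left out that median ran from 2.2e-05 (without control replicate 2) to 0.029 (without control replicate 1). The importer median was 0.0043 with array weights, 0.0084 with unnormalized arrays and −0.015 with median scaling. Over all genes the median was −0.014 with unnormalized arrays and −0.037 with median scaling. SLC39A4, the intestinal zinc importer, lay at −0.13 ± 0.069, with values of 7.30, 7.33 and 7.20 with the miR-182 inhibitor, all below the 7.38, 7.36 and 7.48 of the control. It was the 1 importer of the 11 tested whose groups lay apart, against 13.0% of all genes, or 6.23% with the inhibitor lower. SLC39A13 lay at −0.11 ± 0.096, or −0.055 without control replicate 1, −0.21 without control replicate 3 and −0.049 from the deposited table. Adjusted p-values of these 4 genes ran from 0.721 to 0.905 in limma.

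Metallothioneins also bind copper. All 12 genes of a copper handling list were tested, 10 above and 2 below 0, with a median of 0.042, and 0 passed the test. CCS, the copper chaperone of superoxide dismutase, lay at −0.14 ± 0.085 (SE), or −0.23 and −0.081 without miR-182 inhibitor replicates 1 and 2. COX11, a copper-binding assembly factor of cytochrome oxidase, lay at 0.12 ± 0.061, or 0.078 from the deposited table, its groups apart (6.48, 6.55 and 6.47 with the miR-182 inhibitor, against 6.37, 6.39 and 6.38 with the control). Their adjusted p-values in limma were 0.730 and 0.696. The groups lay apart in 3 of the 12, COX11, the copper chaperone ATOX1 and the copper importer SLC31A1, against 13.0% of all genes. The median of the list was 0.0080 with unnormalized arrays and −0.016 after median scaling, where that of all genes was −0.037.

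Of 21 genes listed as responsive to metals or oxidants, 20 were tested, 13 above and 7 below 0, and 0 passed. SLC39A10 was in this list and in that of the zinc importers. The median of the stress list was 0.043. That median was −0.0023 without miR-182 inhibitor replicate 1, 0.020 without miR-182 inhibitor replicate 3 and 0.0085 without control replicate 3. It was 0.024 with array weights, 0.015 with unnormalized arrays and −0.0090 with median scaling. The last 2 settings put the median of all genes at −0.014 and −0.037. HSPA1A, the inducible heat shock protein, read 9.98, 9.91 and 9.97 with the miR-182 inhibitor, against 9.81, 9.95 and 9.64 with the control, a difference of 0.15 ± 0.085 (SE) that was 0.072 without control replicate 3. TXNRD1, a thioredoxin reductase, lay at 0.13 ± 0.073, or 0.051 with median scaling, and their adjusted p-values in limma were 0.723 and 0.721. The groups lay apart in 2 of the 20, GCLM, a subunit of the enzyme that starts glutathione synthesis, and PLAT, the tissue plasminogen activator, against 13.0% of all genes. Glucocorticoids also induce MT2A. Neither the stress list nor the list of glucocorticoid-responsive genes was sorted by the direction in which a gene responds. Of 9 glucocorticoid-responsive genes 7 were tested, 4 above and 3 below 0, with a median of 0.016. It was −0.0091 and −0.017 without miR-182 inhibitor replicates 1 and 3, −0.019 without control replicate 3 and −0.012 with median scaling, and with the other arrays left out in turn it ran from 0.013 to 0.038. NR3C1, the glucocorticoid receptor, read 7.12, 6.83 and 7.08 with the miR-182 inhibitor, against 6.88, 6.86 and 6.76 with the control, a difference of 0.18 ± 0.088 (adjusted p = 0.692) that was 0.27 without miR-182 inhibitor replicate 2. The kinase SGK1 lay at 0.076 ± 0.066 (adjusted p = 0.814), or 0.0060 with median scaling and 0.12 without control replicate 3.

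**Figure D5:**
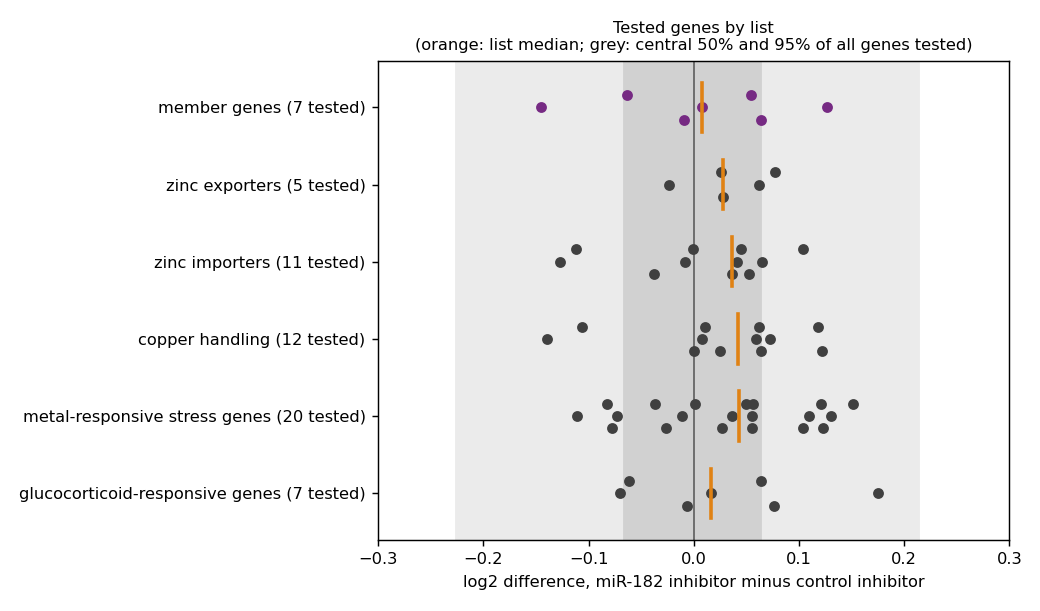
Log2 difference, miR-182 inhibitor minus control inhibitor, of each tested gene of the member list and 5 other lists (points, 1 per gene and list). List medians are in orange, and the central 50% and 95% of all genes tested in grey. All points of the 6 rows lie within the central 95% of all genes, and the medians lie between 0.0073 and 0.043. The list of other metallothioneins is not drawn, and its 1 tested gene, TESMIN, at −0.26, lies below that central 95%.

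Of the other metallothioneins of the cluster with a probe, MT1M, MT1L, the brain isoform MT3 and the epithelial isoform MT4 were detected on no array, and MT1B on 1. TESMIN, a germ cell protein formerly counted with the family as MTL5, was the only tested gene of that list of 11, of which 6 had a probe. It read 4.85, 4.94 and 4.78 with the miR-182 inhibitor, against 5.08, 5.30 and 4.97 with the control, and the groups did not overlap, with the inhibitor lower, as in 6.23% of all genes. Its signals before normalization overlapped, at 54.9, 60.3 and 54.6 intensity units with the miR-182 inhibitor, against 62.0, 63.8 and 52.7 with the control. Its difference of −0.26 ± 0.091 (SE) had an adjusted p of 0.602 in limma, and was −0.11 both from the deposited table and without background correction, −0.13 with an offset of 50, and −0.17 without control replicate 2. Before adjustment it was 0.0181, and 4.15% of all genes had an unadjusted p under 0.05 in that direction. Its second probe was not detected on any array. Of the control genes, ACTB lay at 0.060 ± 0.071 and GAPDH at 0.026 ± 0.076. Both were below 0 after median scaling, at −0.010 and −0.058, where the median of all genes was −0.037.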

How the data were processed

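Arrays were grouped by the sample descriptions, which also number the replicates. The numbers were not used to pair arrays in the main analysis. Deviations of same-numbered arrays from their group means correlated at −0.0060 to 0.020 over genes, and those of differently numbered arrays at −0.066 to 0.058. These values show no effect shared by number, but cannot tell whether same-numbered replicates were handled together. The authors' files give each probe's mean signal intensity, bead standard deviation, bead count and detection value, per the file headers. The deposited detection value is a fraction, and 1 minus it served as the detection p-value. As no deposited intensity was below 0, background correction and normalization were both applied here. The submitters' processing notes name BeadStudio. The deposited value table holds intensities with a common median of 47.2 on all arrays, by a method not given in the sources used here.

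Bead addresses were paired with probe names by each probe's 6 ranks, 1 per array, unique for all 48803 probes, and genes came from GEO's platform annotation, with 0 symbols updated. Of the probes, 28098 had 1 gene, 13 several and 20692 none, and the last 2 kinds were left out of gene tests. Intensities went through neqc of limma 3.58.1 in R 4.3.3 (background inferred from the detection p-values, offset 16, quantile normalization), which turned the deposited intensities into log2 values. Probes with a detection p under 0.05 on at least 3 of 6 arrays were kept (21349), and the probe with the highest mean stood for its gene (12087 genes). Tests were 2-sided with lmFit and eBayes (prior degrees of freedom 5.19), adjusted by Benjamini-Hochberg, and the fit was tested on simulated data. The 3 arrays per group limit the precision. No slide or scan date was given in the sources used here, so no batch could be tested.

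The members and lists were chosen with earlier results of these data known. Named are every member, the 2 tested genes of each other list farthest from 0 (none passed the test), the 5 genes most like the metallothionein of highest mean signal, and ACTB and GAPDH. Other list genes and the marker genes were named after their values were seen. Alternatives were a replicate block, other normalizations, background settings, filters, priors and weights, every probe on its own, and each array left out. Promoters and the microRNA come from RefSeq tables of GRCh38.p14. The array files name no genome build.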

Additional observations from a re-analysis of the deposited data

How the results depend on the processing

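No member gene and no gene of the other lists passed the adjusted threshold under any of the 17 alternatives. Over all genes, 0 were called, except 5 with unnormalized arrays and 7 with median scaling. At an unadjusted p under 0.05 there were 318 and 412 genes under these 2 settings, 1476 of 21349 probes with every probe on its own, and 925 in the main analysis; the cause was not tested. With the replicate block, which rests on numbers that may not pair the arrays, 0 genes were called and 880 had an unadjusted p under 0.05. The metallothionein median of 0.054 was 0.018 with unnormalized arrays and −0.0059 with median scaling, where the median of all genes was −0.014 and −0.037. With 1 array left out it ran from −0.013 to 0.056, and that of all members from −0.030 to 0.054. Under the remaining alternatives the differences turned sign in MT1E (−0.0059 after median scaling), SLC30A1 (−0.019 after median scaling, −0.0034 with array weights), SLC30A7 (−0.00097) and ACTB (−0.010), both after median scaling, and GAPDH (−0.034 unnormalized, −0.058 median scaled and −0.018 from the deposited table). With 1 array left out the ranges that crossed 0 were −0.035 to 0.17 for MT1F, −0.039 to 0.016 for MT2A, −0.030 to 0.060 for SLC30A1, −0.053 to 0.16 for SLC30A3, −0.010 to 0.086 for GAPDH, −0.069 to 0.022 for CEP70, −0.14 to 0.0013 for EML5, −0.049 to 0.0013 for SNX6, −0.16 to 0.031 for H1-3 and −0.063 to 0.042 for TPST1. MT1H, at background, allows no fold, and signals near it depend on the background correction. The second MT1E probe differed by 0.085 without correction and 0.093 with an offset of 50. Under these settings MT1F lay at 0.036 and 0.040, and TESMIN at −0.11 and −0.13.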

Other observations

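MT1B, at background elsewhere, had a signal of 54.8 intensity units on miR-182 inhibitor replicate 1 (44 beads, detection p of 0) and 46.3 and 45.5 on the other miR-182 inhibitor arrays, against 44.6, 44.3 and 44.7 on the control arrays. The same array gave the highest MT1F value, 79.5 units (standard error over its beads 3.43), against 72.8 and 75.1 on the other miR-182 inhibitor arrays. MT1F had 75.9, 72.6 and 65.2 units on the control arrays. Inhibitor replicate 1 was also the array with the lowest MT1X and MT2A signals. Over the 6 arrays MT1F and SLC30A1 had the highest Pearson's r of any pair of member genes, 0.92, and MT1G and MTF1 the lowest, −0.80; both were picked from 21 pairs that share 1 normalization.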
